A study of Rattus norvegicus with 8 samples.

Results

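The genes described here are 33 genes that mark microglia, the resident phagocytes of nervous tissue, and the macrophages of vessels and tissue borders. They were taken by symbol from a table of gene expression in the rat neural lobe. To be tested, a gene had to reach 10 in 4 or more of the 8 libraries. Of the 33 genes 32 did so, as did 17919 of the 33294 genes listed in all, and Marco, a scavenger receptor gene, was at 0 in all 8 libraries. Just inside the limit stood Ms4a7, at 14.1 to 26.4. The neural lobe (neurohypophysis, or posterior pituitary) of male Sprague Dawley rats was profiled by RNA sequencing at 35 days, the group the labels call the control, and at 125 days, to ask how its gene expression changes with age. Each age had 4 libraries, and no other treatment or genotype was labelled. Values are depth-normalized counts, that is, read counts divided by 1 factor per library. The 28429133 to 58696254 recovered reads per library gave from 15 reads (Siglec1) to 157564 reads (Apoe) for a member that was detected.

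Microglia enter nervous tissue in the embryo and then renew themselves locally, and they depend on signalling through the receptor Csf1r. In the neural lobe they lie among the pituicytes and the terminals of the vasopressin and oxytocin axons and are known to engulf parts of those terminals. The lobe also holds perivascular macrophages along its fenestrated capillaries, which lie outside the blood-brain barrier. Both cell types share lineage genes such as Spi1 and Ptprc, whereas Tmem119 and P2ry12 mark microglia and Mrc1 and Cd163 mark macrophages of vessels and borders. Tmem119 was at 216 to 786 and Mrc1 at 312 to 582 over the 8 libraries, so both markers were present in each. In whole lobes, fewer cells of a type and less RNA per cell cannot be told apart.

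Of the 32 members, 6 were lower at 125 days and 3 were higher by limma with Benjamini-Hochberg adjustment over the 17919 genes (adjusted p below 0.05). The 6 were the microglial genes Tmem119, P2ry12 and Gpr34, the calcium-binding protein gene Aif1, the hyaluronan receptor gene Lyve1 and the apolipoprotein gene Apoe. The 3 were the lysosomal protein gene Cd68, the sialic acid receptor gene Siglec1 and the inhibitory Fc receptor gene Fcgr2b. Over all genes tested 8.87% were called lower and 8.85% higher, 17.7% in either direction, against 28.1% of the members. The same 9 members did not overlap between ages, where 24.9% of all genes did not. The median log2 change (125 minus 35 days) was -0.10 over the 32 members and 0.01 over all genes tested. Without 35-day replicate 3, whose anterior lobe markers stood far above those of the other libraries, 8 members were lower and 3 higher, against 14.8% and 15.9% of all genes (30.7% in all). P2ry13 and Sall1 were the members gained there. Without 125-day replicate 3, in which several macrophage genes were high, 5 members were lower and 3 higher, against 5.76% and 5.11% (10.9% in all). When the level of the anterior lobe markers was added as a term to limma, 6 members were lower and 1 was higher, against 7.27% and 7.18% (14.4% in all). That level itself differed with age, as all 10 markers had a log2 change below 0. Its mean log2 value spanned 8.78 to 13.72 in the young libraries but only 7.17 to 9.27 in the old. The term can thus take up part of an age difference, and a call lost with it cannot be assigned to either. On the recovered reads edgeR called 6 lower and 3 higher, against 9.22% and 8.47% of all genes, and DESeq2 6 lower and 4 higher, against 12.3% and 11.2% (23.4% in all).

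**Figure D1:**
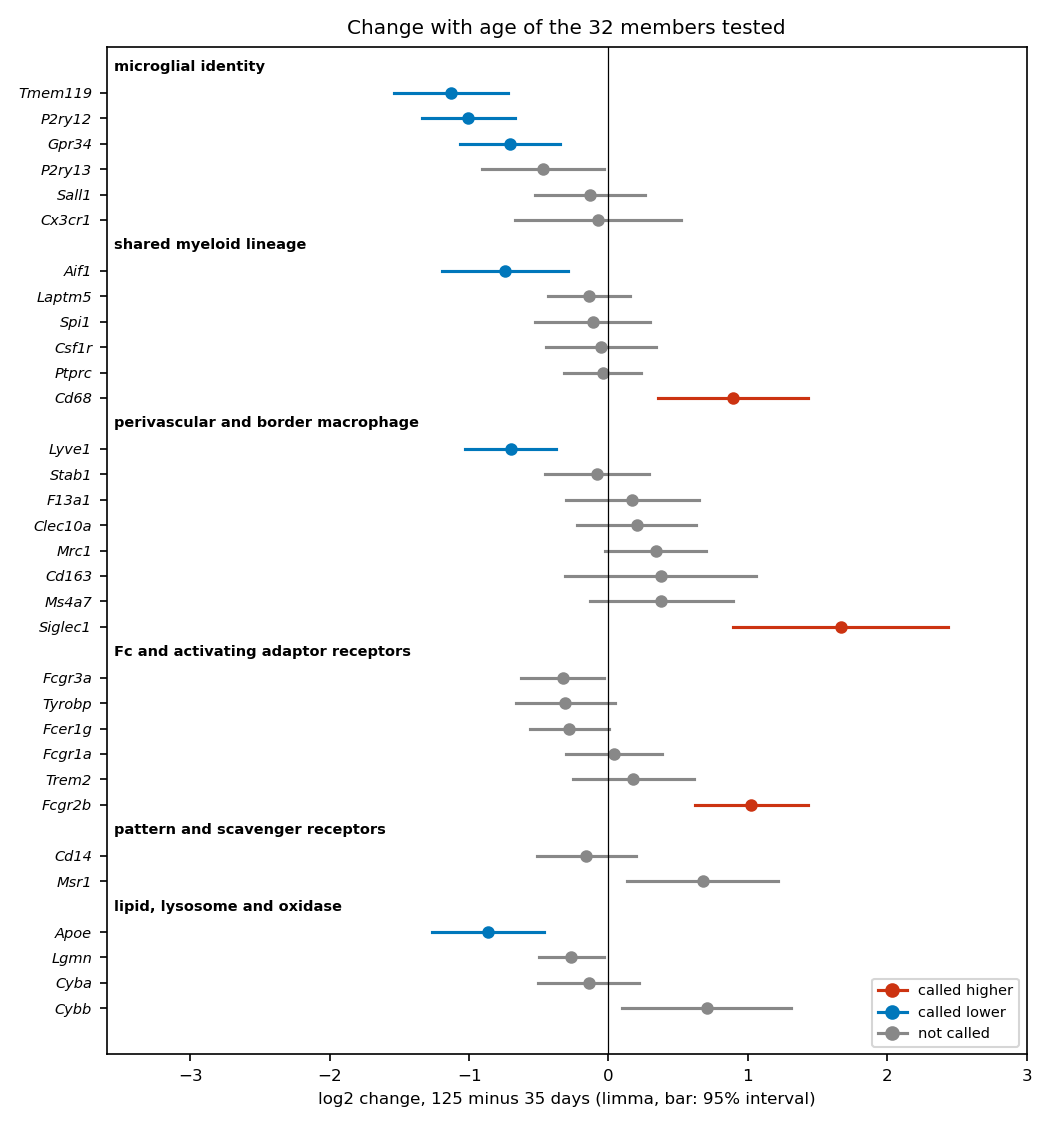
Log2 change from 35 to 125 days of each of the 32 members tested, grouped by role, with its 95% interval from limma (x axis). The microglial identity genes all lie below 0, with 3 of 6 called lower (8.87% of all genes tested were), and Siglec1 has the highest value at 1.67.

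RefSeq promoter windows of GRCr8 were at hand for 21 of the 33 members, in 23 windows that run from 250 bases before to 50 bases after a start site. GAGGAA, the core of the site of the transcription factor PU.1, which Spi1 encodes, was searched on both strands. It was in at least 1 window of 14 of the 21 genes (14 of 23 windows), against 27.6% of all 33469 windows. The longer GAGGAAG, which contains it, was in 9 of 23 windows against 12.4% of all. TGAGTCA, a site of the AP-1 factors, was in 1 of 23 windows, that of Cd68, against 4.63% of all. The 250 bases before the start follow for the called members with a single window, Cd68, Gpr34 and Lyve1. Capitals mark matches to any of these motifs.
Cd68 (chr10:54882442-54882691, minus strand): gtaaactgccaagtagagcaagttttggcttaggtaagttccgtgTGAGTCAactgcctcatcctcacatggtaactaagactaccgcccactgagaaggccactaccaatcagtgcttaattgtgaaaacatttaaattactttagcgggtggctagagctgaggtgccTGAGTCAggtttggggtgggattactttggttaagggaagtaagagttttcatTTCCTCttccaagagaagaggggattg
Gpr34 (chrX:11785837-11786086, minus strand): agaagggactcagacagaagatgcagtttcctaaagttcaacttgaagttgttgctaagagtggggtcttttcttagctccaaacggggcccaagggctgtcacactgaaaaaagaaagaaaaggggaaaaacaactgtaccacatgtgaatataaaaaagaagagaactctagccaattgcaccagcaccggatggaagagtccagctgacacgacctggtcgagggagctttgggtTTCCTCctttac
Lyve1 (chr1:174410978-174411227, minus strand): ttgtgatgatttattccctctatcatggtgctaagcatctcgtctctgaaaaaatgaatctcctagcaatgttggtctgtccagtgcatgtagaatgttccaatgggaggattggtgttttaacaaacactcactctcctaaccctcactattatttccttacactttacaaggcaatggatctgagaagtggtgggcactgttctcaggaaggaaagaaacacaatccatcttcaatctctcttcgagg
In these stretches Cd68 has TGAGTCA in 2 places and GAGGAA in 1, read on the opposite strand. Gpr34 has GAGGAA in 1 place, close to the start, and Lyve1 has none of the motifs. Apoe has 3 windows, 1 of them with GAGGAA. A match describes the letters in a window and does not show that a factor binds there. So few genes cannot tie a match to a rise or fall with age, and such a link was not tested. The files' own build is rn7, so these positions apply to GRCr8 alone.

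All 6 genes of microglial identity had lower means at 125 days, and 3 of them passed the test. Over all genes tested, 8816 of 17919 had a log2 change below 0 and 8.87% were called lower. Tmem119 encodes a membrane protein of microglia. It was at 516, 786, 653 and 468 in 35-day replicates 1 to 4 and at 216, 273, 325 and 281 in 125-day replicates 1 to 4. The lowest 35-day library thus stood above the highest 125-day library. Its log2 change was -1.13 (SE 0.18, adjusted p = 0.00267, limma). P2ry12, a receptor for ADP that guides the movement of microglial processes, was at 1107, 1282, 998 and 925 at 35 days and at 481, 682, 532 and 458 at 125 days. Every 35-day library was above every 125-day library, with a log2 change of -1.01 (SE 0.15, adjusted p = 0.00158, limma). Gpr34, a receptor for lysophosphatidylserine, was at 757, 842, 579.7 and 689.7 and at 367, 524, 501 and 372, again without overlap (log2 change -0.71, SE 0.16, adjusted p = 0.0144, limma). The Gpr34 call was lost without 125-day replicate 4 (adjusted p = 0.0515, limma).

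P2ry13, a related ADP receptor next to P2ry12, was at 347, 373, 215 and 271 and at 191, 254, 237 and 177. The lowest 35-day value, of replicate 3, fell among the 125-day values, and the log2 change of -0.47 (SE 0.20) had an adjusted p of 0.131. Without that library it was -0.62 (SE 0.16, adjusted p = 0.0177, limma). It was -0.80 with the anterior lobe term (SE 0.23, adjusted p = 0.0435, limma). Sall1, a transcription factor gene that keeps microglial identity and is also expressed in other developing tissues, was at 1079, 1207, 683 and 1217 and at 840.1, 998, 1005 and 895 (log2 change -0.13, 95% interval -0.52 to 0.26). Without the same 35-day replicate 3 its log2 change was -0.32 (SE 0.09, adjusted p = 0.0197, limma). Cx3cr1, the fractalkine receptor gene, was at 795, 991, 414 and 890.1 and at 540.4, 931, 755 and 623, and the ages overlapped widely (log2 change -0.07, 95% interval -0.67 to 0.52). Here too 35-day replicate 3 had the lowest value. The change was -0.57 for Cx3cr1 and -0.42 for Sall1 with the anterior lobe term (adjusted p = 0.224 and 0.198, limma).

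Beside these falls, some markers of another cell type that expresses Tmem119, the osteoblast, were also lower. The osteoblast list was added after the values were seen. Of its 6 genes 3 were called lower, against 8.87% of all genes tested. Ibsp was among them (from 128 ± 62.4 to 3.85 ± 2.19, SD, n = 4), at a low level at 125 days. The summed level of the 6 overlapped between ages, at 1044 to 1381 in the young libraries and 780 to 1092 in the old. No gene of the list was at 0 throughout. With the anterior lobe term 1 of the 6 was called lower, against 7.27% of all genes. P2ry12 is also a platelet gene. Of 6 platelet markers, added likewise, 2 were high enough to test and neither passed in limma, edgeR or DESeq2 (0 of 2 at an unadjusted p below 0.05), although 1 of the 2 was called higher in limma without 35-day replicate 3. The summed level was 128 to 177 and 124 to 178, with Gp1bb at 0 in all libraries. The part of these cells in the falls was not tested. P2ry12 and P2ry13 lie within Med12l in the GRCr8 gene table, and Gpr34 overlaps Cask. Without a stated strand setting such reads cannot be told apart. Med12l was at 1708 ± 640.3 and 1591 ± 112 (SD, n = 4; log2 change 0.01, SE 0.29). Without 35-day replicate 3, where Med12l was at 749.7, its log2 change was -0.35 (adjusted p = 0.00521, limma). Cask was higher at 125 days (3479 ± 647 and 5076 ± 413, SD, n = 4; adjusted p = 0.0233, limma). The Cask call was lost without 125-day replicates 1, 3 or 4 (adjusted p = 0.0751, 0.0527 and 0.0695, limma), with total scaling (0.0543) and with the anterior lobe term (0.199).

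**Figure D2:**
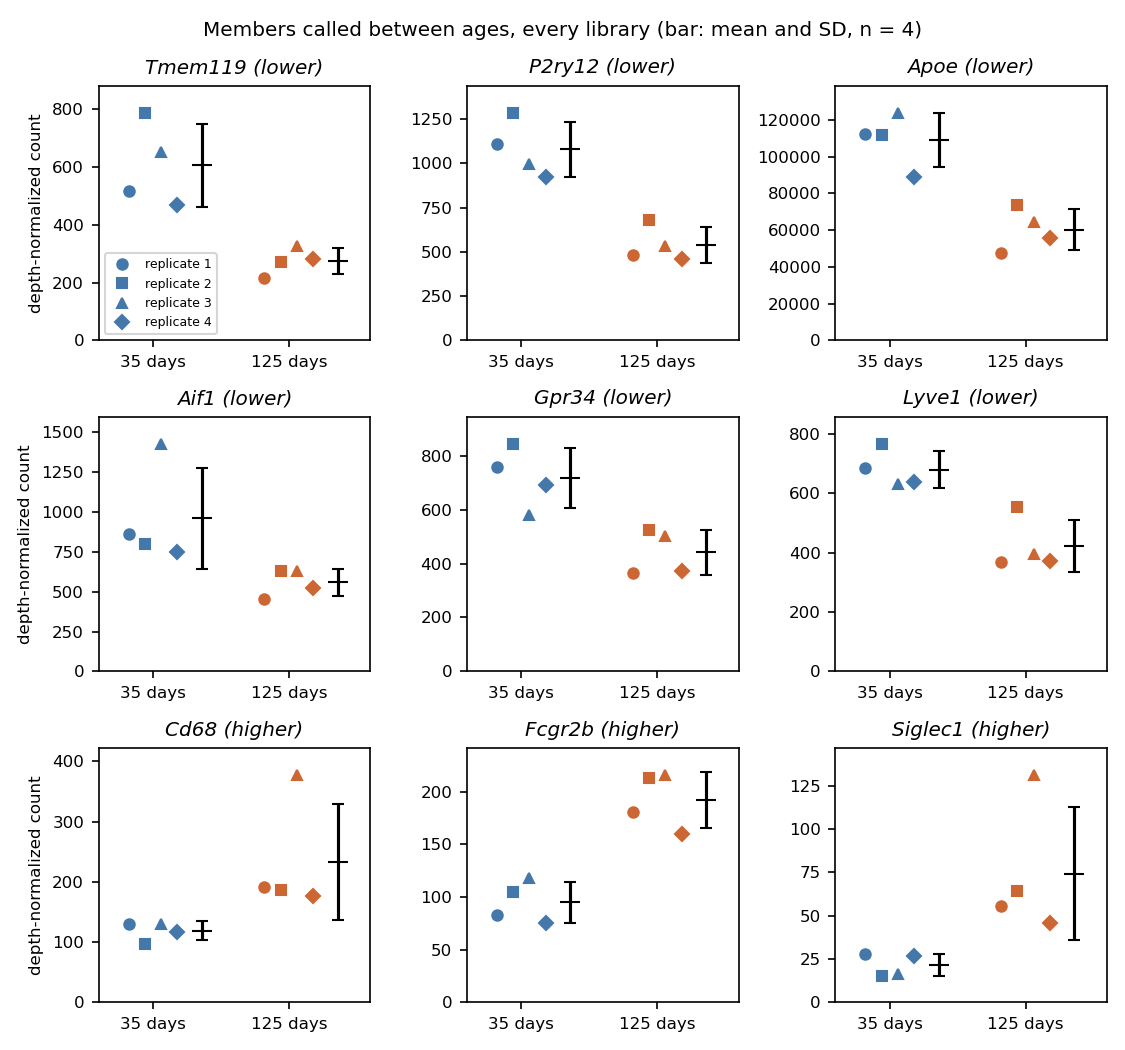
Depth-normalized counts (y axis, from 0) of the 9 members called between ages in each of the 8 libraries, with the mean and SD of the 4 libraries of an age. No 35-day point overlaps the 125-day points in any panel, and 125-day replicate 3 stands apart for Cd68 (377) and Siglec1 (131).

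Of the 6 genes that all microglia and macrophages share, Aif1 was lower, Cd68 was higher and Csf1r, Ptprc, Spi1 and Laptm5 did not pass the test. Csf1r, the receptor on which these cells depend, was at 4500.4, 5080.1, 3200.4 and 4540.2 and at 3405, 5416, 4284 and 3625. Its ages overlapped and its log2 change was -0.05 (95% interval -0.45 to 0.34, adjusted p = 0.871, limma). The Csf1r change was -0.37 with the anterior lobe term (SE 0.20, adjusted p = 0.245, limma). Ptprc, the CD45 phosphatase of all leukocytes, was at 485 to 611 and 485 to 624, with a log2 change of -0.04 (95% interval -0.32 to 0.24). Spi1, which encodes PU.1, had a log2 change of -0.11 (95% interval -0.52 to 0.30), and Laptm5, a lysosomal membrane protein of leukocytes, one of -0.14 (95% interval -0.43 to 0.16). With the anterior lobe term the log2 changes were -0.23 for Ptprc, 0.069 for Spi1 and -0.22 for Laptm5, and none of the 3 passed in limma (adjusted p = 0.345, 0.881 and 0.450).

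Aif1 and Cd68, both widely used to stain microglia and macrophages, went opposite ways. Aif1 (Iba1) was at 859, 799, 1423 and 751 at 35 days and at 455, 630.4, 628 and 520.1 at 125 days. The 35-day values lay above the 125-day values, with replicate 3 far above the rest. Its log2 change was -0.74 (SE 0.20, adjusted p = 0.0306, limma), and -0.53 without 35-day replicate 3 (SE 0.12, adjusted p = 0.00976). The Aif1 call was lost without 35-day replicate 1 (adjusted p = 0.0570, limma), without 125-day replicates 1, 3 or 4 (0.0943, 0.0543 and 0.0860) and with the anterior lobe term (log2 change -0.49, SE 0.26, adjusted p = 0.230). Cd68 was at 130.3, 97.1, 131 and 117 and at 191, 187, 377 and 176. The 125-day values were all higher, and replicate 3 held the top value by a wide margin. The log2 change of Cd68 was 0.90 (SE 0.24, adjusted p = 0.0293, limma) and 0.64 without that library (SE 0.16, adjusted p = 0.0391). Its call was lost without 35-day replicates 1, 2 or 4 (adjusted p = 0.0528, 0.0821 and 0.0581, limma) and without 125-day replicate 1 (0.0542). It was lost too with the anterior lobe term, where the change was as large (0.97, SE 0.34, adjusted p = 0.0823).

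Among the 8 genes of perivascular and border macrophages, Siglec1 rose, Lyve1 fell and the other 6 did not pass. Siglec1 (CD169), a receptor for sialylated cells and particles, was at 28.0, 15.5, 16.3 and 26.5 at 35 days. At 125 days it was at 55.9, 64.5, 131 and 45.9, all above the 35-day range. The log2 change was 1.67 (SE 0.35, adjusted p = 0.00925, limma), the highest of the members, and 1.35 without 125-day replicate 3 (SE 0.29, adjusted p = 0.0199). With the anterior lobe term it was 1.34 (SE 0.46, adjusted p = 0.0816, limma), short of the threshold. Siglec1 rested on 15 to 104 reads a library, few beside the other called members.

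Lyve1, which binds hyaluronan on some perivascular macrophages and on lymphatic endothelium, was at 684, 765, 631 and 637 and at 368, 553, 396 and 371. Both sets lay apart, though 125-day replicate 2 was well above the other 3, and the log2 change was -0.70 (SE 0.15, adjusted p = 0.00918, limma). Endothelial markers moved the same way: 6 of 10 were called lower (3 of 10 without 125-day replicate 3, where 5.76% of all genes were). None of the 10 is specific to lymphatic endothelium, so these markers do not bear on that source. Their summed level ranged from 24016 to 33878 in the young libraries and from 15242 to 29869 in the old, and no marker was at 0. The part of endothelial cells in the Lyve1 value was not tested.

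Mrc1, the mannose receptor gene, was at 433, 369, 312 and 367 and at 356, 582, 493 and 460.4. Its 125-day values were higher in 3 of 4 libraries, with a log2 change of 0.34 (95% interval -0.02 to 0.70, adjusted p = 0.186, limma). The Mrc1 change was 0.044 with the anterior lobe term (adjusted p = 0.898, limma). Cd163, the haemoglobin scavenger receptor gene, was at 101, 82.7, 37.0 and 79.0 and at 70.1, 99.7, 124 and 81.1, overlapping between ages. Stab1 (log2 change -0.08, SE 0.17), F13a1 (0.17, SE 0.21), Clec10a (0.20, SE 0.19) and Ms4a7 (0.38, SE 0.23) did not pass either. With the anterior lobe term the log2 changes were -0.23 for Cd163, -0.32 for Stab1, -0.31 for F13a1 and 0.35 for Clec10a, again short of the threshold. Without that term 6 of the 8 macrophage genes had a log2 change above 0 and 2 below.

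Fc receptors bind the constant part of antibodies, and Fcer1g and Tyrobp are the adaptors through which activating receptors signal. Of these 6 genes 1 passed, the inhibitory receptor gene Fcgr2b. It was at 82.8, 104, 118 and 75.1 at 35 days and at 181, 213, 216 and 160.3 at 125 days, so every 125-day value was above every 35-day value and the means differed 2.03-fold. The log2 change was 1.02 (SE 0.18, adjusted p = 0.00421, limma), and leaving out any 1 library moved it between 0.92 and 1.13. The activating receptor gene Fcgr3a was at 299, 246, 270.2 and 229.7 and at 182, 232, 202 and 216. Its 35-day values lay mostly above, with a log2 change of -0.33 (95% interval -0.62 to -0.03, adjusted p = 0.121, limma). Fcgr1a, the high-affinity receptor gene, had a log2 change of 0.04 (95% interval -0.31 to 0.38). The adaptor genes Fcer1g (-0.28, SE 0.13, adjusted p = 0.159, limma) and Tyrobp (-0.31, SE 0.16, adjusted p = 0.217) had lower means at 125 days and did not pass. Trem2, a lipid receptor gene that signals through Tyrobp, had a higher mean (0.18, SE 0.19, adjusted p = 0.578, limma). Fcgr1a was at -0.10, Tyrobp at -0.087 and Trem2 at 0.36 on the log2 scale with the anterior lobe term. Genes of the Fc receptor family are similar in sequence, so reads may be shared between them and their separate values are uncertain.

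Of the pattern and scavenger receptor genes, Cd14, the co-receptor for bacterial lipopolysaccharide, was at 264 to 342 and 221 to 344 (log2 change -0.16, SE 0.16). Msr1, a scavenger receptor gene, was at 121, 105, 81.7 and 98.8 and at 134, 162, 261 and 119. Its highest 125-day value was again in replicate 3, and the log2 change of 0.68 (SE 0.24) had an adjusted p of 0.0847 in limma and 0.0289 in DESeq2 on recovered reads. The Msr1 change was 0.45 without 125-day replicate 3 (adjusted p = 0.190, limma) and 0.47 with the anterior lobe term (adjusted p = 0.378). Marco gave no read, so its level was under the 3 reads that a count of 0 allows in each library.

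Apoe, the main lipid carrier of nervous tissue, was at 112431, 111935, 123640.0 and 88933 at 35 days and at 47729, 73449, 64312 and 55761 at 125 days. All 35-day values exceeded all 125-day values, and the log2 change was -0.87 (SE 0.18, adjusted p = 0.00951, limma). Astroglia and pituicytes also express Apoe. Of 10 pituicyte markers 3 were lower in limma, and 7 without 35-day replicate 3, where 14.8% of all genes were lower. None of the 10 was higher in limma, edgeR or DESeq2. Their summed level ranged from 73543 to 126382 in the young libraries and from 58223 to 87222 in the old, with no marker at 0. The part of pituicytes in the Apoe value was not tested. Lgmn, a lysosomal protease gene, was at 3146 to 4005 and 2627 to 3198 (log2 change -0.27, SE 0.10, adjusted p = 0.108, limma).

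Cyba and Cybb encode the membrane subunits of the phagocyte NADPH oxidase, which makes superoxide. Cyba was at 862, 909, 1410.0 and 870.3 and at 792, 961, 977 and 873, and apart from 35-day replicate 3 the values of both ages lay together (log2 change -0.14, SE 0.16, and 0.13 for Cyba with the anterior lobe term). Cybb was at 265, 238, 145 and 306 and at 302, 409.5, 569.9 and 282. Its 125-day values of 409.5 and 569.9 lay above every 35-day value, whereas 302 and 282 did not. The log2 change of 0.70 (SE 0.27) had an adjusted p of 0.105 in limma. Leaving out single libraries moved that change between 0.48 and 0.84. The Cybb change was 0.30 with the anterior lobe term (adjusted p = 0.593, limma). In 35-day replicate 3 Cyba was the highest and Cybb the lowest of their age.

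Ratios between members within a library do not depend on its scaling factor, and they ask whether 5 pairs of members changed unequally. Gene length also enters such a ratio, so the difference between ages is what is read. The log2 ratio of Tmem119 to Csf1r was -3.12, -2.69, -2.29 and -3.28 at 35 days and -3.97, -4.31, -3.72 and -3.69 at 125 days. Tmem119 was thus lower relative to Csf1r in all 4 older libraries, by -1.07 (exact permutation p = 0.0286, adjusted over the 5 pairs 0.0357). Without 125-day replicate 2 the difference was -0.95 (exact permutation, adjusted p = 0.0714). P2ry12 relative to P2ry13 differed by -0.54, Fcgr2b relative to Fcgr3a by 1.35 and Mrc1 relative to Lyve1 by 1.04. For each of these 3 pairs the ages did not overlap and the exact permutation p was 0.0286, adjusted 0.0357. Cybb relative to Cyba differed by 0.85 with overlapping ages (exact permutation p = 0.0571, adjusted 0.0571), by 0.45 without 35-day replicate 3 (adjusted 0.114) and by 1.04 without 35-day replicate 4 (adjusted 0.0286). The tests were two-sided, and 0.0286 is the smallest p that 4 against 4 libraries can give. The pairs were drawn from members that were chosen with earlier results of these data known. Tmem119, P2ry12, Fcgr2b and Lyve1 were also called on their own, so these tests reuse the same values and add no separate support. Unequal change does not show which gene of a pair moved.

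**Figure D3:**
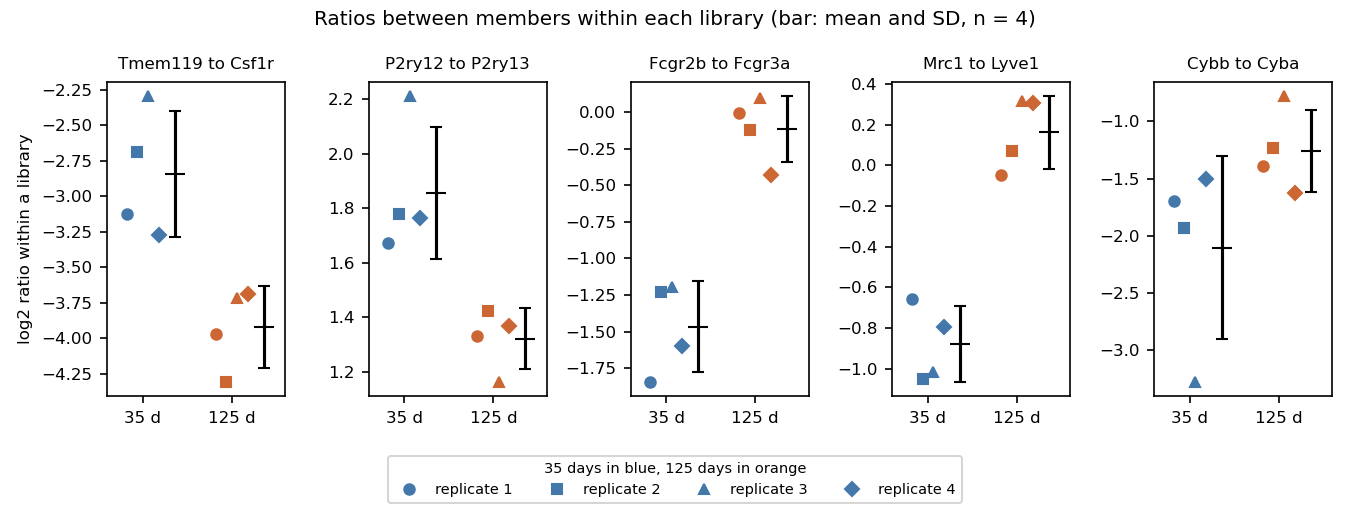
Log2 ratio within each library (y axis, a separate scale per panel) for 5 pairs of members at 35 and 125 days, with the mean and SD of 4 libraries. The ages lie apart in 4 pairs and overlap for Cybb to Cyba, where 35-day replicate 3 is lowest at -3.27.

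Libraries of 1 age differed in the members as a group. Among the 125-day libraries replicate 2 had the highest value for 19 of 32 members and replicate 3 for 12, while replicate 1 had the lowest for 19 and replicate 4 for 12. Over all genes tested replicate 2 was the highest of its age for 27.6% and replicate 3 for 20.7%. Replicate 1 was the lowest for 27.5% of all genes and replicate 4 for 17.9%. Among the 35-day libraries replicate 4 was lowest for 13 members (40.6%, against 22.9% of all genes) and highest for 3 (9.4%, against 21.6%). There replicate 3 was highest for 12 members (37.5%) and lowest for 13 (40.6%), close to its shares of 38.7% and 39.9% over all genes. In replicate 3 of 35 days Aif1, Cyba, Tyrobp, Spi1 and Clec10a were 1.48 to 1.77 times the mean of the other 3 libraries, and Cx3cr1, Sall1, Cd163 and Cybb were 0.423 to 0.585 times. In replicate 3 of 125 days Siglec1 was 2.37 times the mean of the other 3, Cd68 2.04, Msr1 1.88, Cybb 1.72, Cd163 1.48 and Trem2 1.41. Genes named here were chosen after their values were seen. The anterior lobe markers summed to 1394210 in 35-day replicate 3, to between 24266 and 228126 in the other 35-day libraries and to between 6508 and 50156 at 125 days. The part of the anterior lobe in the values of replicate 3 was not tested. Intermediate lobe markers summed to between 2028750 and 3773790 at 35 days and to between 3635230 and 5362760 at 125 days. Of these 6 markers 2 were called higher, and 0 with the anterior lobe term. The part of the intermediate lobe in the members' values was not tested.

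**Figure D4:**
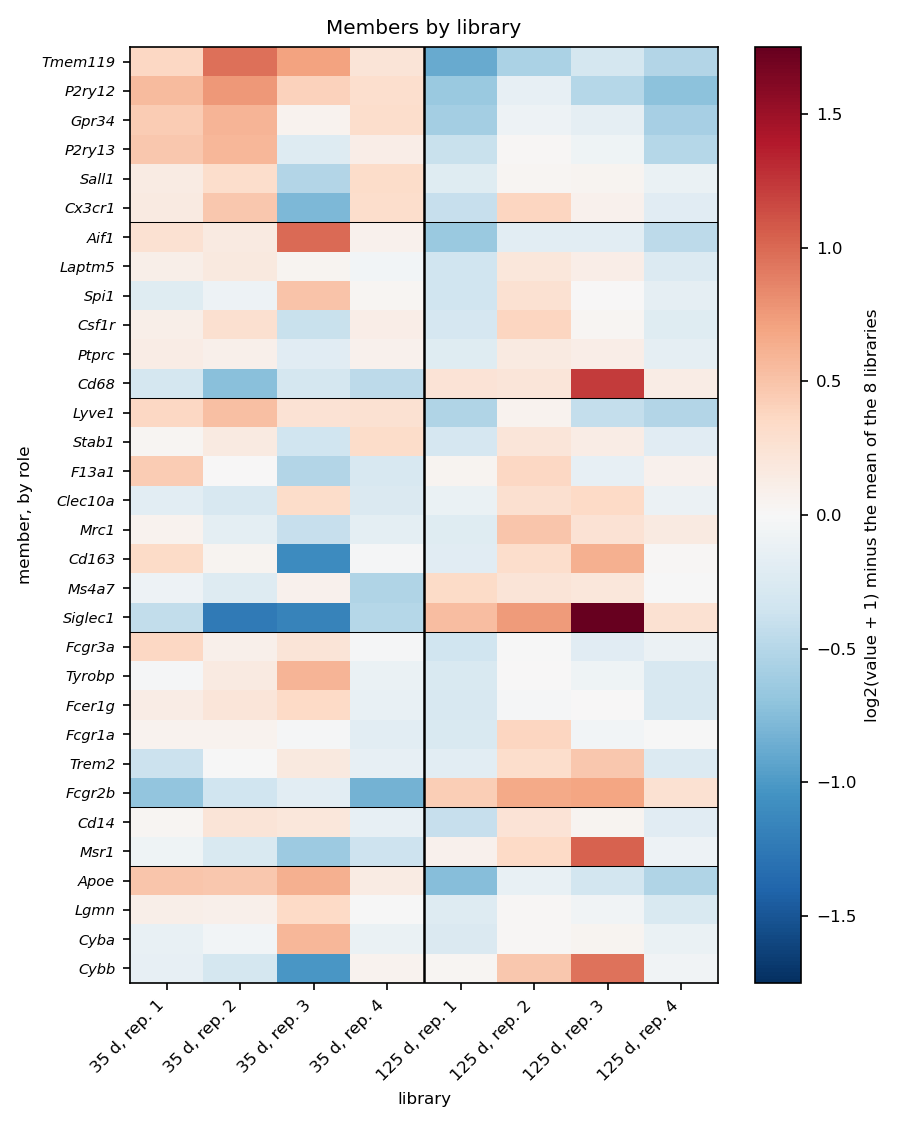
Heat map of log2(value + 1) minus the mean of the 8 libraries for the 32 members (rows, by role) in each library (columns), with red above and blue below the mean. The 35-day replicate 3 column is red for Aif1 and blue for Cx3cr1, and the 125-day replicate 3 column is darkest for Siglec1 and Cd68.

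Further genes of these cells were followed in lists. Of 21 other microglia genes tested 5 were lower and 1 higher (median log2 change -0.26). Selplg, a selectin ligand gene, fell from 1063 ± 132 to 603 ± 91.0 (SD, n = 4; log2 change -0.82, SE 0.14), and Siglec5, another sialic acid receptor gene, fell too (-1.27, SE 0.24). Olfml3, a secreted protein gene of microglia, fell from 956 ± 246 to 471 ± 82.2 (SD, n = 4), and its adjusted p was 0.0598 in limma with the anterior lobe term. Rgs10, a regulator of G protein signalling (log2 change -0.58, SE 0.14), and Cd33, a sialic acid receptor gene (-0.48, SE 0.12), were the others called lower, and Abcc3, a transporter gene, was the 1 called higher (0.72, SE 0.19). In limma the Rgs10 call was lost without 35-day replicate 1 or 125-day replicates 1 or 4 (adjusted p of Rgs10 0.0540 to 0.0696). The Cd33 call was lost without replicates 1 or 2 of 35 days or 3 or 4 of 125 days (0.0564 to 0.0739). The Abcc3 call was lost without 35-day replicate 2 or any 125-day replicate (0.0510 to 0.0766). With the anterior lobe term 0 of 21 were higher and 3 lower, against 7.18% and 7.27% of all genes. The complement gene C1qa, made by microglia and macrophages, was at 2662 ± 705 and 2664 ± 604 (log2 change 0.01, SE 0.21). C1qa was chosen after its values were seen.

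Of 18 genes that rise in microglia near damage and plaques, 2 were higher and 2 lower (median log2 change -0.08). Gpnmb, a glycoprotein gene of lipid-laden phagocytes, was at 103, 99.2, 142 and 143 at 35 days and at 520.1, 596, 2253 and 389 at 125 days. Every 125-day value was higher, replicate 3 by far the most (log2 change 2.58, SE 0.46, adjusted p = 0.00424, limma; 2.03 without that library, SE 0.21, adjusted p = 5.32e-04). Clec7a, the beta-glucan receptor gene, rose from 45.6 ± 15.8 to 134 ± 18.3 (SD, n = 4; log2 change 1.58, SE 0.24). Igf1 fell (log2 change -1.32, SE 0.19), though many cell types make it. Lgals3, the galectin-3 gene, fell as well (-0.83, SE 0.21). The Lgals3 call was lost without 35-day replicate 1 (adjusted p = 0.0608, limma), without 125-day replicates 1, 2 or 4 (0.0740, 0.0603 and 0.0663) and with the anterior lobe term (0.162). Without 35-day replicate 3 the list of 18 held 4 higher and 5 lower, against 15.9% and 14.8% of all genes. Trem2 and Apoe, members that belong to the same signature, had log2 changes of 0.18 and -0.87.

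Neither ligand of Csf1r passed the test: Csf1 was at 1219 ± 208 and 1421 ± 221 (SD, n = 4; log2 change 0.22, SE 0.15) and Il34 at 516 ± 57.5 and 531 ± 12.1 (0.05, SE 0.11). Among 20 genes of Csf1r ligands and myeloid transcription factors 1 rose, Cebpa (log2 change 0.85, SE 0.18), and 1 fell, Tgfb1 (-0.47, SE 0.14). The Tgfb1 call had an adjusted p of 0.0433 in limma and missed the threshold when any library but 35-day replicate 3 or 125-day replicate 2 was left out (0.0581 to 0.118), without the trend or filter, and with the anterior lobe term. Without 35-day replicate 3 that list of 20 held 3 higher and 3 lower, against 15.9% and 14.8% of all genes. Of 10 genes through which other cells address microglia, Cd200, a restraining ligand of neurons and endothelium, rose from 2167 ± 159 to 3984 ± 258 (SD, n = 4; log2 change 0.88, SE 0.09, adjusted p = 1.82e-04, limma). Tgfb2, a growth factor gene of the same list, fell (-0.92, SE 0.19), and the fractalkine gene Cx3cl1 was at -0.07 (SE 0.18). Without 35-day replicate 3, 1 gene of this list of 10 was higher and 4 were lower, against 15.9% and 14.8% of all genes.

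Of 16 genes listed for signalling downstream of Tyrobp and Fcer1g, 0 passed in limma or edgeR and 1 in DESeq2 (lower). Among the 16, 2 had an unadjusted p below 0.05 in limma (median log2 change -0.23). The list also holds Hcst, a separate adaptor gene, and Dap3, a mitochondrial ribosomal protein gene that is not part of this signalling. Without 35-day replicate 3, 2 of the 16 were higher and 2 lower, against 15.9% and 14.8% of all genes. Of 7 further NADPH oxidase genes Rac2 fell (-0.63, SE 0.12). Of 10 other border macrophage genes tested 1 rose, the scavenger collectin gene Colec12 (1.02, SE 0.13), and 3 fell, Cd38, which breaks down NAD (-1.03, SE 0.16), Hpgd, which breaks down prostaglandins (-0.77, SE 0.14), and the endocytic adaptor gene Dab2 (-0.54, SE 0.13). The Dab2 call was lost in limma without replicates 1, 2 or 4 of 35 days or 1 or 3 of 125 days (adjusted p of Dab2 0.0508 to 0.0695). Fibroblasts and endothelial cells also express Colec12.

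**Figure D5:**
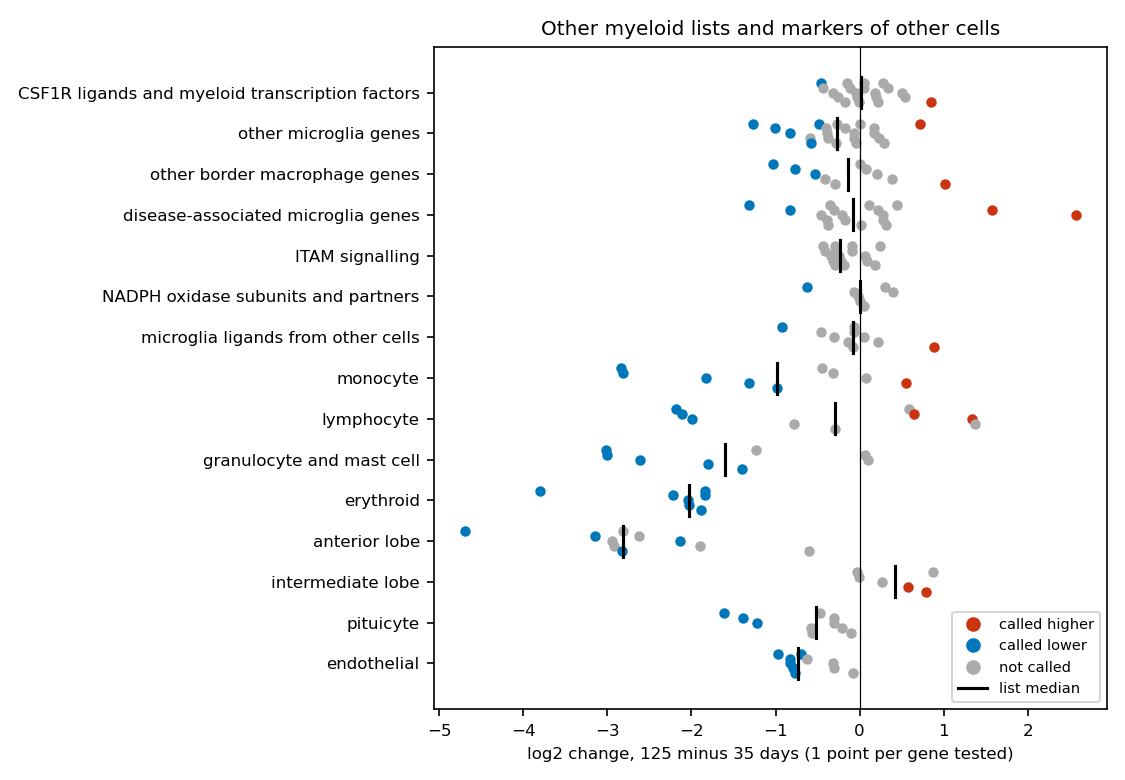
Log2 change from 35 to 125 days (x axis) of each tested gene of the other myeloid lists and of the marker lists of other cells, with the list median as a bar. The erythroid list lies wholly below 0 (median -2.03), and the signalling list holds no called gene.

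Markers of blood cells that could lie in the lobe moved with age. Of 9 monocyte markers 5 were lower and 1 higher, the 1 being the integrin gene Itgal, whose call was lost without any 1 of the 125-day libraries or without 35-day replicates 1 or 2 (adjusted p of Itgal 0.0562 to 0.117, limma), and in edgeR. The monocyte markers summed to between 2233 and 3765 in the young libraries and between 1493 and 2026 in the old. S100a9, of monocytes and neutrophils, fell from 422 ± 126 to 64.9 ± 43.6 (SD, n = 4), whereas the monocyte receptor gene Ccr2 was at 62.9 ± 17.2 and 65.4 ± 13.1. All 7 erythroid markers were lower, with summed levels of 8845 to 15056 and 2087 to 4897. Granulocyte and mast cell markers were lower in 5 of 8 (summed level 2538 to 4376 and 2146 to 3849.6). None of these markers was at 0 in all libraries. Cd4, in rats a gene of macrophages and microglia as well as of T cells, rose from 856 ± 41.7 to 1349.6 ± 224 (SD, n = 4; log2 change 0.64, SE 0.12, adjusted p = 0.00639, limma). The T cell gene Cd3e was at 3.95 to 29.3 over the 8 libraries. Of 9 lymphocyte markers tested 2 were higher and 3 lower, with a median log2 change of -0.30. The lymphocyte list had summed levels of 1028 to 1170 and 1224 to 1766. Its mean log2 level did not rise with the sum (young libraries 4.75 to 5.46, old libraries 4.22 to 5.01). A sum is weighted to the highest genes, so it does not show that lymphocyte markers rose in general. The part of blood cells in the members' values was not tested.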

How the data were processed

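RNA sequencing of 8 neural lobe libraries (4 of 35 and 4 of 125 days) was analysed from the table the authors deposited. Per the labels' protocols, rats were perfused with buffered saline and libraries were made from poly(A) RNA. Build rn7 and the tools DESeq2 1.34.0, Subread 2.0.1 with featureCounts, SAMtools 1.13, HISAT2 2.2.1 and Trimmomatic 0.39 are named, with no role for each, in the submitters' processing notes. The sources used here give neither strand setting nor annotation. The deposited values are a depth-normalized signal, read counts divided by a factor per library: 100% were whole multiples of 1 read (tolerance 0.001), which gave back the reads. The 2 columns of the authors' means were not used.

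The test was limma (version 3.58.1, under R 4.3.3) on log2(value + 1), its variance trended on mean level, for the 17919 genes that passed the filter of the members, with age as the only term. It understates changes of low genes. Members and lists were chosen with earlier results of these data known. The labels do not say that libraries came from separate animals, so p-values measure the spread between libraries. Between libraries of an age the variance was 16.7 to 330 times that of read sampling, so none was a copy. Ratios were tested by exact permutation (70 arrangements). Every member is named. Of other lists up to 4 called genes in each direction with the lowest adjusted p could be named. Alternatives left out each library, added the mean log2 level of the anterior lobe markers or the replicate block as a term, scaled by TMM or by the total, dropped the trend or the filter, asked for a mean of 50 or more, set the pseudocount to 5 or 0.5, or tested the recovered reads by edgeR 4.0.16 (3170 genes called) or DESeq2 1.42.0 (4196). In a simulation of 125 against 35 days over 17919 genes limma found 85 of 100 genes set to change 2-fold. It found 98 of 100 set to change 4-fold, and called 12 of the unchanged. The changed genes all had a mean of 50 or more, and genes were drawn independently, with no deviation shared across a library. These rates thus do not cover lower genes such as Siglec1 and Ms4a7, or a library set apart like 35-day replicate 3. Promoter sequences are RefSeq's (GRCr8). Counting limits cover counting error only. Figures were drawn with matplotlib 3.10.9.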

Additional observations from a re-analysis of the deposited data

Results flagged for a closer look

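Of 64 sets of 4 values (32 members at 2 ages), 5 held a library that stood apart by Dixon's test at its 95% critical value. Chance gives about 1 such set in 20. In 35-day replicate 3 these were Aif1 (1423, the others 751 to 859), Cyba (1410.0, the others 862 to 909) and Clec10a (135, the others 88.9 to 95.0). In 125-day replicate 3 it was Cd68 (377, the others 176 to 191), and in 125-day replicate 2 Lyve1 (553, the others 368 to 396).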

How the results depend on the processing

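Tmem119, P2ry12, Lyve1, Fcgr2b and Apoe kept their direction and their call in all 19 alternatives, and 20 of the 23 members not called were called in none. The count of members called higher was 1 with the anterior lobe term, and all other counts of members, leaving out libraries included, were within 1.5 times those reported (2 to 3 higher and 4 to 8 lower when 1 library was left out). The count of all genes called ranged from 1894 (without 125-day replicate 4) to 5495 (without 35-day replicate 3). The replicate numbers gave little sign of pairing the libraries: deviations of same-numbered libraries correlated at 0.044, 0.167, -0.000 and -0.116. Not every library correlated best with its own number. Such correlations over all genes cannot exclude a shared batch. With the replicate block 2718 genes, 3 members higher and 6 lower were called. With that block the smallest p of a ratio is 0.125, and the adjusted p of the differences of -1.07 (Tmem119 to Csf1r), -0.54, 1.35 and 1.04 was 0.156 each. Without 125-day replicate 2 the Tmem119 to Csf1r difference was -0.95 (exact permutation adjusted p = 0.0714), and that of Cybb to Cyba was 0.45 without 35-day replicate 3 (0.114) and 1.04 without 35-day replicate 4 (0.0286). Uncalled changes near 0 turned sign. With the anterior lobe term the log2 changes were 0.069 for Spi1, -0.23 for Cd163, -0.31 for F13a1, -0.10 for Fcgr1a and 0.13 for Cyba. With total scaling they were -0.025 for Fcgr1a and -0.016 for Il34. Leaving out 1 library gave ranges of -0.35 to 0.071 for Cx3cr1, -0.19 to 0.037 for Csf1r, -0.22 to 0.032 for Spi1, -0.12 to 0.019 for Ptprc, -0.21 to 0.0097 for Stab1, -0.082 to 0.13 for Fcgr1a, -0.21 to 0.028 for Cyba, -0.031 to 0.099 for Il34 and -0.21 to 0.054 for Cx3cl1. Siglec1 and Ms4a7 are not tested at a mean of at least 50. The cause of these shifts was not tested. Depth limits Siglec1 and Ms4a7 most, with as few as 15 and 16 reads.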
